A study of Mus musculus with 12 samples.

Results

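The circadian clock genes of primary mouse skeletal muscle fibroblasts were examined after 48 h with aldosterone, an agonist of the mineralocorticoid receptor (MR). The group held the 10 genes *Per1*, *Per2*, *Per3*, *Cry1*, *Cry2*, *Clock*, *Nr1d1*, *Nr1d2*, *Dbp* and *Tef*, chosen by name for their place in the clock, out of 28995 genes in the series. Earlier results of these data were known when they were chosen. All 10 were present in each table of the series and none was lost to a filter.

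The mammalian clock is a transcriptional feedback loop that runs in nearly every cell, including cultured fibroblasts. CLOCK and its partner BMAL1 bind E-box sequences and switch on the *Per* and *Cry* genes, whose proteins return to the nucleus and silence that pair. A second loop joins in through the REV-ERB receptors, made from *Nr1d1* and *Nr1d2*, which repress *Bmal1*, and the D-box factors DBP and TEF pass the rhythm on to output genes. *Per1* is also known as a gene that steroid hormone receptors switch on directly, and glucocorticoids are a common means of resetting clocks in culture.

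Fibroblasts came from the hindlimb muscles of C57/BL10 wild-type mice at postnatal day 3, with cells pooled for each of 2 mice and 2 replicate plates for every mouse and treatment. The 3 groups of 4 libraries received aldosterone at 1 µM, the MR antagonist spironolactone at 1 µM or the DMSO vehicle, and all of them grew in charcoal-stripped serum, which removes steroids, from 24 h before treatment. Spironolactone was given alone, so no group held agonist and antagonist together. A library is named by a sample number and a biological replicate number, each 1 or 2, and which number stands for the animal is not stated. Because libraries are plates of 2 animals, p-values measured the spread between these plates, which may be technical in part. Every plate was harvested at a single time after treatment, so a change in the level of a clock gene and a change in the phase of its rhythm cannot be told apart. In bulk RNA, fewer cells of a type and less RNA per cell cannot be told apart either.

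The libraries held 19136923 to 30219185 reads assigned to genes (median 23833379). Values are normalized counts, which are reads divided by a size factor of the library, and log2 differences are between means of log2(normalized count + 1), with p-values adjusted over all genes of a table by the Benjamini-Hochberg method. All 6 fibroblast markers (*Pdgfra*, *Pdgfrb*, *Col1a1*, *Col1a2*, *Dcn*, *Thy1*) were well above 10 normalized counts in each group. Among markers of other cells, the satellite cell gene *Pax7* and the leukocyte gene *Ptprc* were at 0 in every aldosterone library. Their vehicle means were only 0.92 and 0.66 normalized counts. The macrophage gene *Adgre1* went the other way, at 0 in every vehicle library and a mean of 1.37 with aldosterone. The 3 endothelial genes summed to between 33.3 and 88.8 normalized counts with vehicle and between 115 and 256 with aldosterone. Most of that sum was *Kdr*, and no endothelial marker was at 0 in a whole group. Limma called *Kdr* higher with aldosterone (log2 difference 1.88, adjusted p = 0.00183, limma), a call that 6 of 8 omissions of a single library ended. The endothelial marker *Pecam1* lay between 1.84 and 3.85 with aldosterone and between 4.88 and 10.1 with vehicle. *Cdh5* went the other way, with means of 15.2 with aldosterone and 9.50 with vehicle, and neither of them was called. Myogenic, macrophage and glial sums overlapped between aldosterone and vehicle. The fibroblast markers together, most of whose counts were *Col1a1* and *Col1a2*, held 3.12% to 3.53% of the reads of the aldosterone libraries. In the vehicle libraries they held 3.87% to 4.31%, with no overlap. Of these 6 genes limma called only *Pdgfra*, from between 2854 and 3327 with vehicle to between 5528 and 6271 with aldosterone (log2 difference 0.91, adjusted p = 2.93e-08, limma), while the other 5 had lower means, *Col1a1* by 0.34 on the log2 scale without overlap (adjusted p = 0.0527, limma). The part of these markers in the clock results was not tested.

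The regulatory sequences of the clock loops were read from RefSeq promoter windows (GRCm38.p6), which run from 250 bases before to 50 bases after an annotated start and matched 9 of the 10 genes. *Per2* had no entry. These stretches are shown because each carries the letters of a motif that clock proteins are known to bind, set in capitals. They are the E-box in *Per1*, *Cry1* and *Tef*, its variant in *Cry1*, and a pair of D-boxes in *Per3*. A half-site of the ROR and REV-ERB receptors is marked in *Per1* and *Nr1d2*, and the bases flanking it were not searched. Each stretch is printed 5′ to 3′ on the strand of its gene.
*Per1*, chr11:69098750-69098849, plus strand: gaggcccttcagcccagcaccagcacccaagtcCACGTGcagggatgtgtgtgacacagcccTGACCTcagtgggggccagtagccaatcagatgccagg
*Per3*, chr4:151044794-151044893, minus strand: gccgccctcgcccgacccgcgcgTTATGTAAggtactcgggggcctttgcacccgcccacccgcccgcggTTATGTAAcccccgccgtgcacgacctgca
*Cry1*, chr10:85185072-85185171, minus strand: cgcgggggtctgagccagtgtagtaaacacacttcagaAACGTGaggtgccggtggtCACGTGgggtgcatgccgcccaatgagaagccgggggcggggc
*Nr1d2*, chr14:18239131-18239230, minus strand: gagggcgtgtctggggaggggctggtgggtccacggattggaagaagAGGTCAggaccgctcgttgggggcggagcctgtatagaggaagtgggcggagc
*Tef*, chr15:81802499-81802598, plus strand: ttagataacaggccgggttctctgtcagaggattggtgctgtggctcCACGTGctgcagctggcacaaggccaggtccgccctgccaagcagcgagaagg

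Motifs were searched on both strands of the 300-base windows. The E-box (CACGTG) was found in *Per1*, *Cry1* and *Tef*, 3 of 9 genes, and in 7.15% of all 32851 promoter windows. Its variant (CACGTT) was found in *Cry1*, *Cry2* and *Nr1d1*, and in 4.68% of all windows. The D-box (TTATGTAA) occurred in *Per3* alone among the 9, at 205 and 158 bases before the start, and in 0.938% of all windows. The ROR half-site (AGGTCA), which REV-ERB receptors share, occurred in *Per1*, *Nr1d2* and *Clock*, and in 16.3% of all windows. The cyclic AMP element (TGACGTCA, 1.79% of windows) had no match in the 9 genes. The palindromic steroid receptor element, which MR and the glucocorticoid receptor share, had none either and was in 3 of all windows. Its half-site (TGTTCT, 19.0% of windows) was found in 1 of the 2 windows of *Tef*. No clock motif was found in the window of *Dbp*. A match describes letters in a window and nothing about binding in these cells.

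Of the 10 clock genes, aldosterone raised 1 and lowered 3 against vehicle at an adjusted p of at most 0.05 (limma). *Per1* rose 3.56-fold. *Dbp*, *Per3* and *Nr1d2* fell to 0.376, 0.472 and 0.536 of their vehicle means. By the same rule, 5.68% of all 27319 genes were higher and 4.74% were lower. With a log2 fold change of at least 1 in either direction required as well, 3 clock genes passed, *Per1*, *Per3* and *Dbp*, against 2.06% of all genes. The median log2 difference of the 10 genes was -0.19, beside -0.01 for all genes. The shares of all genes, here and below, include genes too low for the filter of edgeR, which kept 15416 and all 10 clock genes. Among the genes kept, edgeR called 1637 higher and 1418 lower, and of the clock genes 1 higher and 3 lower. The libraries of the groups did not overlap for 5 clock genes, the 4 named and *Cry2*, as for 14.5% of all genes. With 4 libraries against 4, groups that do not overlap always give the smallest p of the two-sided exact permutation test, 0.0286. That test ignores the sample number, and for these 5 genes it adds nothing to their lack of overlap.

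**Figure D1:**
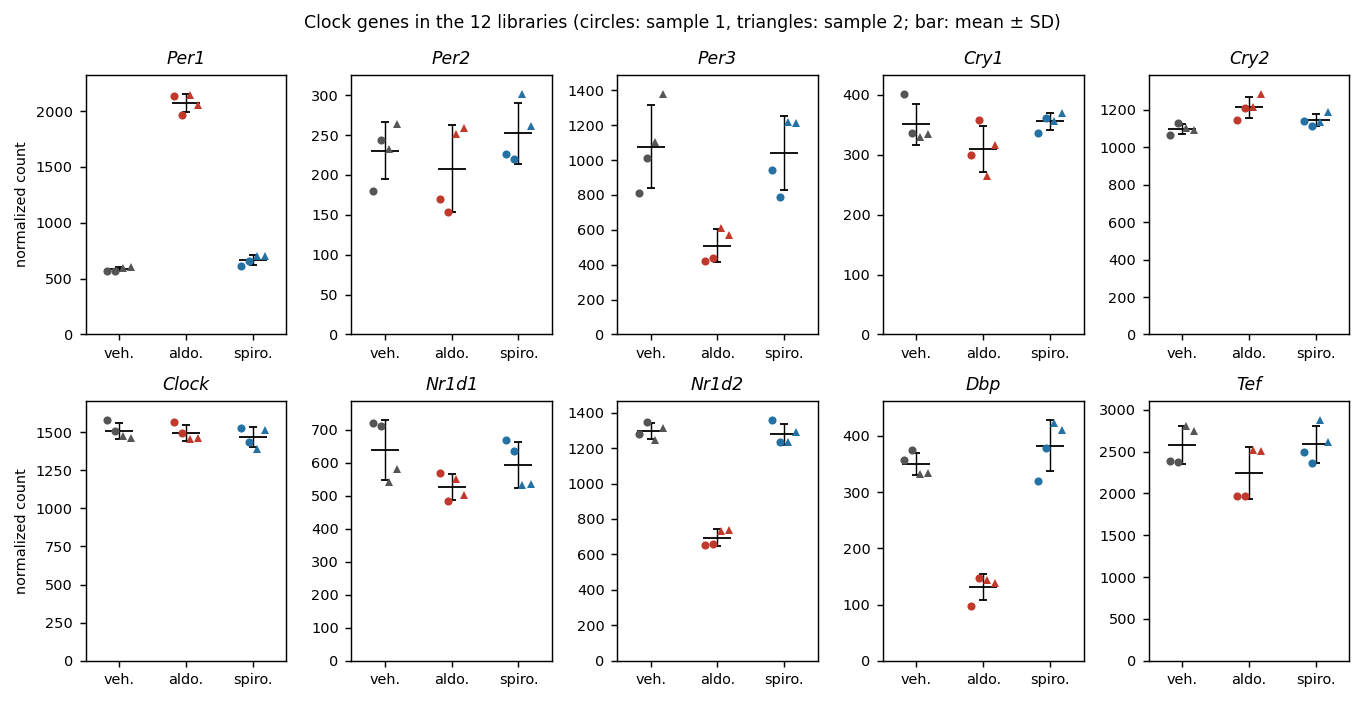
Normalized counts (linear axis from 0) of the 10 clock genes in 4 vehicle, 4 aldosterone and 4 spironolactone libraries, with circles for sample number 1, triangles for sample number 2 and bars for the mean ± SD. The aldosterone libraries lie from 1966 to 2141 for *Per1*, above all other libraries, and from 96.9 to 146 for *Dbp*, below all others.

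The PER proteins are the repressors whose rise and fall times the loop, and their 3 genes did not move together. *Per1* (ENSMUSG00000020893, chromosome 11, 68986043 to 69000786, plus strand) had 565, 568, 598 and 600.1 normalized counts in the vehicle libraries and 2133, 1966, 2141 and 2049 in the aldosterone libraries, listed from sample 1 replicate 1 to sample 2 replicate 2 here and in all lists of 4 values. The lowest aldosterone library stood far above the highest vehicle library. The means were 2072 ± 82.1 and 583 ± 18.7 (SD, n = 4), and the log2 difference was 1.83 (standard error 0.058, adjusted p = 3.34e-12, limma). *Per3* (ENSMUSG00000028957, chromosome 4, 151088109 to 151129122, minus strand) had 813, 1009.9, 1106 and 1380.4 normalized counts with vehicle and 419.8, 437, 609 and 569 with aldosterone. Its groups did not overlap, although the vehicle libraries spread widely and those of sample 1 were the lower ones in both groups. The log2 difference of *Per3* was -1.07 (standard error 0.14, adjusted p = 6.45e-05, limma). The gene lies within the longer gene *Camta1* on the same strand, which had 148 ± 15.7 counts with aldosterone and 145 ± 20.6 with vehicle.

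*Per2*, a PER gene whose loss disrupts behavioural rhythms in mice, was not called. Its normalized counts were 180.4, 244, 233 and 264 with vehicle and 169, 153, 251 and 258 with aldosterone (ENSMUSG00000055866, chromosome 1, 91343704 to 91387046, minus strand). The groups overlapped, with the sample 1 aldosterone libraries below all 4 vehicle libraries and the sample 2 libraries among them. The log2 difference was -0.17, with a 95% interval from -0.52 to 0.18 (adjusted p = 0.637, limma).

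The CRY proteins, the strongest repressors of CLOCK and BMAL1, had 2 genes near their vehicle levels. *Cry1* (ENSMUSG00000020038, chromosome 10, 84967564 to 85020928, minus strand) had 402, 337, 329 and 335 normalized counts with vehicle and 299.7, 358, 265 and 316 with aldosterone, and its groups overlapped. Its log2 difference was -0.18 (95% interval -0.40 to 0.03, adjusted p = 0.351, limma). *Cry2* (ENSMUSG00000068742, chromosome 2, 92233991 to 92264388, minus strand) had 1065, 1128, 1101 and 1092 with vehicle and 1148, 1208, 1215 and 1286 with aldosterone. All aldosterone libraries were above all vehicle libraries for *Cry2*, by a small margin. Its log2 difference of 0.15 (95% interval 0.02 to 0.27) did not pass the test over all genes (adjusted p = 0.144, limma).

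*Clock* (ENSMUSG00000029238, chromosome 5, 76357715 to 76452639, minus strand), which encodes the DNA-binding partner of BMAL1, had the narrowest interval around 0. It had 1579, 1509.5, 1474 and 1463 normalized counts with vehicle and 1567, 1496, 1454 and 1461 with aldosterone. The log2 difference was -0.01, with a 95% interval from -0.13 to 0.11 (adjusted p = 0.945, limma).

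The REV-ERB genes, whose products repress *Bmal1*, were both at lower means with aldosterone but differed in size. *Nr1d2* (REV-ERBβ, ENSMUSG00000021775, chromosome 14, 4230569 to 4265642, plus strand in the files and minus strand in GRCm38.p6) had 1277, 1348, 1248 and 1312 normalized counts with vehicle and 652, 656, 732 and 740.2 with aldosterone. The groups were far apart. The log2 difference was -0.90 (standard error 0.065, adjusted p = 7.11e-08, limma). *Nr1d1* (REV-ERBα, ENSMUSG00000020889, chromosome 11, 98658758 to 98666159, minus strand) had 719.8, 711, 541 and 581 with vehicle and 568, 484, 549.7 and 501 with aldosterone. Its groups overlapped through the sample 2 libraries. The log2 difference of -0.27 (95% interval -0.47 to -0.07) gave an adjusted p of 0.0931 without a block and 0.00861 with sample number as the replicate block (limma). The end of *Nr1d1* overlaps *Thra* on the opposite strand over 1075 bases. *Thra* had 4716 ± 243 normalized counts with aldosterone and 3915 ± 233 with vehicle. Whether the counting used strand is not stated, so reads of that stretch cannot be told apart.

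DBP and TEF are the activators that bind D-boxes. *Dbp* (ENSMUSG00000059824, chromosome 7, 45354512 to 45359627, plus strand), one of the most strongly rhythmic transcripts in many tissues, had 357, 376, 333 and 335 normalized counts with vehicle and 96.9, 146, 145 and 139 with aldosterone. Even the highest aldosterone library was well below the lowest vehicle library. The log2 difference was -1.42 (standard error 0.13, adjusted p = 9.23e-07, limma). *Dbp* overlaps *Sphk2* on the opposite strand over 737 bases, and *Sphk2* had 829 ± 79.8 and 800.2 ± 67.7 normalized counts in the same groups. *Tef* (ENSMUSG00000022389, chromosome 15, 81686622 to 81711064, plus strand) had 2387, 2373, 2802 and 2744 with vehicle and 1975, 1968, 2521 and 2511 with aldosterone. Within each sample number both aldosterone libraries of *Tef* were below both vehicle libraries, but sample 2 with aldosterone lay above sample 1 with vehicle. Its log2 difference was -0.21 (95% interval -0.39 to -0.02), with an adjusted p of 0.188 without a block and 0.000846 with sample number as the replicate block (limma). With that block, 1 clock gene was higher (8.68% of all genes) and 5 were lower (8.02%) with aldosterone.

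**Figure D2:**
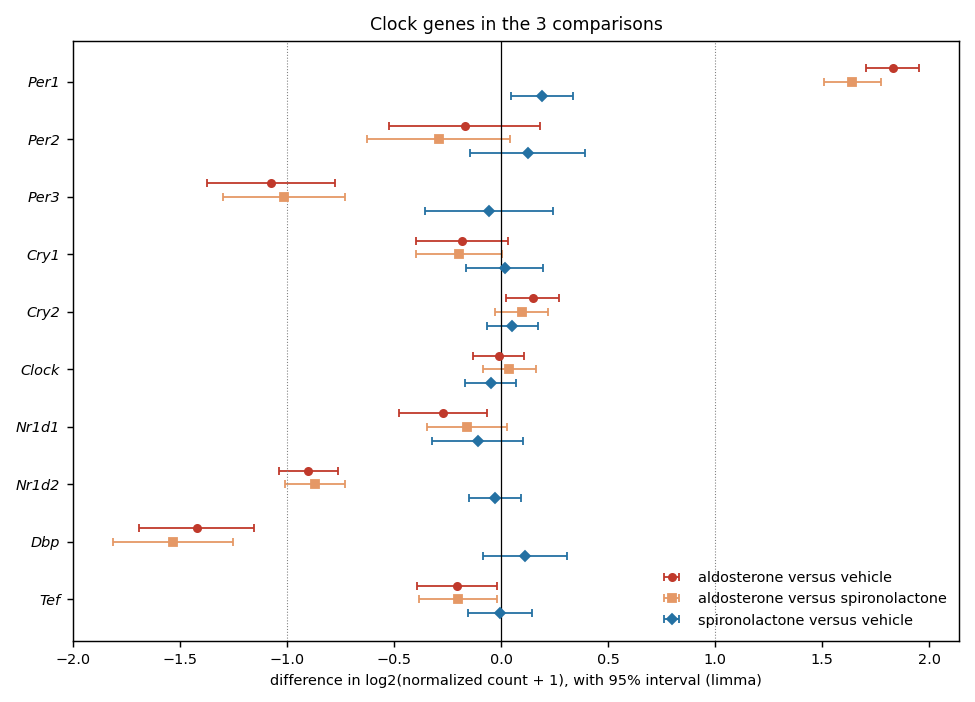
Differences in log2(normalized count + 1) of the 10 clock genes in the 3 comparisons, with 95% intervals from limma (4 libraries a group) and dotted lines at a log2 difference of 1 in either direction. *Per1* lies at 1.83 and 1.64 in the comparisons with aldosterone and at 0.19 for spironolactone against vehicle, while *Dbp* lies at -1.42, -1.53 and 0.11.

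The other genes of the clock pathway were read from a list of 26. With aldosterone against vehicle, 6 of them rose (5.68% of all genes) and 4 fell (4.74%). The median log2 difference of the 26 genes was -0.08, beside -0.01 for all genes. Of 3 activators of the loop on this list, 2 rose and none fell. *Bmal1*, the partner of CLOCK, listed by its older symbol Arntl, had 380.0, 421, 389 and 393 normalized counts with vehicle and 745, 668, 605 and 511 with aldosterone, with no overlap. Its log2 difference was 0.66 (standard error 0.098, adjusted p = 0.000219, limma). *Npas2*, which can stand in for CLOCK, rose by a log2 of 0.79 from a mean of 54.0 counts (adjusted p = 0.0162, limma), and *Bmal2* was not called (-0.15). *Nfil3*, the repressor that competes with DBP and TEF for D-boxes, rose from 456, 499, 405 and 551 counts to 953, 915, 909.7 and 1053. Its groups were wide apart, with a log2 difference of 1.01 (standard error 0.089, adjusted p = 7.54e-07, limma). *Hlf*, the third D-box activator, was near the limit of detection, at means of 3.25 counts with aldosterone and 6.50 with vehicle.

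Among 5 other repressors and modulators, 4 fell and none rose. *Ciart*, a repressor of CLOCK and BMAL1 that is itself driven by E-boxes, fell by 0.65 on the log2 scale (adjusted p = 0.0147, limma), from 97.3 to 132 counts with vehicle to 59.4 to 87.9 with aldosterone. *Timeless* fell by 0.47, *Bhlhe40* (DEC1) by 0.32 and *Cipc* by 0.28 on that scale (adjusted p = 0.00901, 0.0116 and 0.0182, limma). *Bhlhe41* was not called (-0.25).

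Of 8 kinases, ubiquitin ligases and proteases that act on PER and CRY, limma called 0, with 3 at an unadjusted p under 0.05. *Usp2*, a protease that stabilizes clock proteins, was nearest to a call at a log2 difference of 0.35 (adjusted p = 0.0688, limma, and 0.0245 with sample number as the replicate block), and DESeq2 and edgeR with its filter called it. The casein kinase genes *Csnk1d* and *Csnk1e* had log2 differences of 0.02 and -0.05. The ROR receptors, which activate *Bmal1*, had no gene called, and only *Rora* was well expressed, at means of 774 counts with aldosterone and 788 with vehicle. Among 5 outputs, 3 rose: *Nampt*, the rate-limiting enzyme of NAD salvage, by a log2 of 0.50, *Wee1*, a kinase that holds back entry into mitosis, by 0.44 and *Tspan4* by 0.29 (adjusted p = 8.07e-06, 0.00136 and 0.00134, limma).

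**Figure D3:**
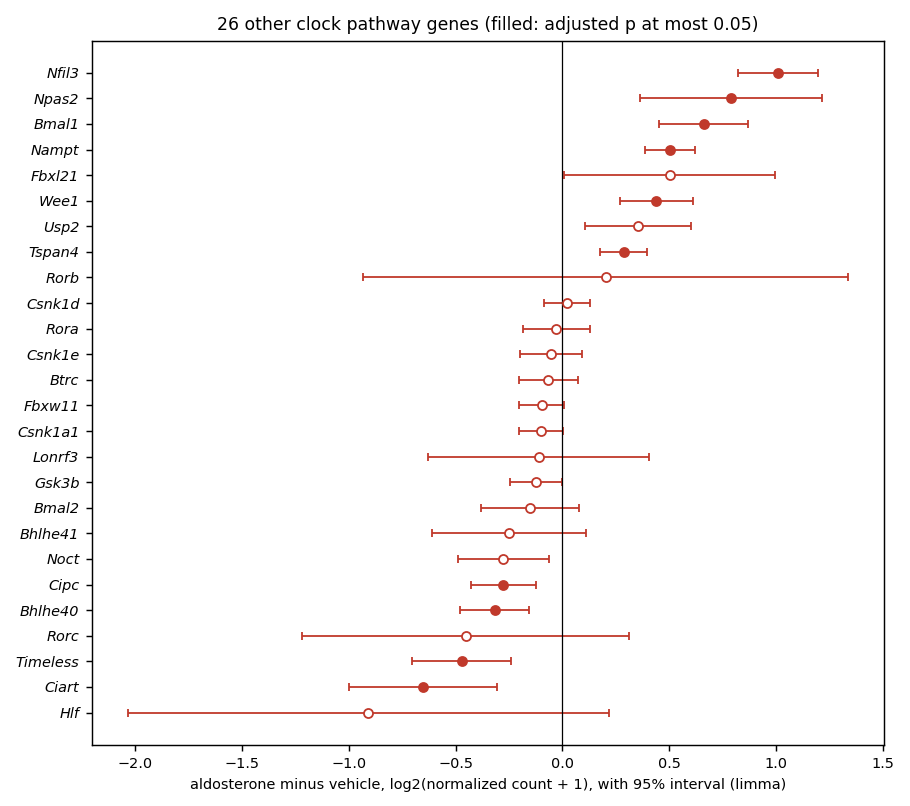
Differences between aldosterone and vehicle in log2(normalized count + 1) of 26 other clock pathway genes, with 95% intervals from limma (4 libraries a group) and filled points at an adjusted p of at most 0.05. The filled points run from *Nfil3* at 1.01 to *Ciart* at -0.65, with 6 above and 4 below 0.

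Several of these calls were lost when a library was left out. Without aldosterone sample 1 replicate 2, aldosterone sample 2 replicate 1 or vehicle sample 2 replicate 2, the number of pathway genes called fell from 10 to 6. Of 8 single omissions, 6 ended the call of *Npas2*, 6 that of *Ciart*, 6 that of *Cipc*, 5 that of *Timeless* and 2 that of *Bhlhe40* (aldosterone sample 1 replicate 2 and vehicle sample 1 replicate 1), with adjusted p up to 0.107 (limma), while *Bmal1*, *Nfil3*, *Nampt*, *Wee1* and *Tspan4* and the 4 clock genes called kept theirs whichever library was left out. Over all the alternatives run, these included, the log2 difference stayed between 0.67 and 0.94 for *Npas2*, between -0.75 and -0.56 for *Ciart*, between -0.55 and -0.41 for *Timeless* and between -0.32 and -0.25 for *Cipc*.

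Ratios within a library do not depend on its scaling, and they set out the size of these shifts. Ratios were taken between normalized counts per kb of the gene length in the files. The ratio of *Per1* to *Per3* was 1.19, 0.959, 0.923 and 0.742 with vehicle and 8.67, 7.67, 6.0 and 6.14 with aldosterone. That of *Nfil3* to *Dbp*, repressor to activator on the D-box, was 1.89, 1.96, 1.80 and 2.43 with vehicle and 14.5, 9.23, 9.30 and 11.2 with aldosterone. That of *Bmal1* to its repressor gene *Nr1d2* lay between 0.214 and 0.224 with vehicle and between 0.496 and 0.822 with aldosterone. None of these 3 ratios overlapped between the groups. The ratio of *Cry2* to *Cry1* did not overlap either, but by a small margin, at 1.40 to 1.77 with vehicle and 1.78 to 2.42 with aldosterone. Since their genes were already compared above, the ratios are given as a description.

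**Figure D4:**
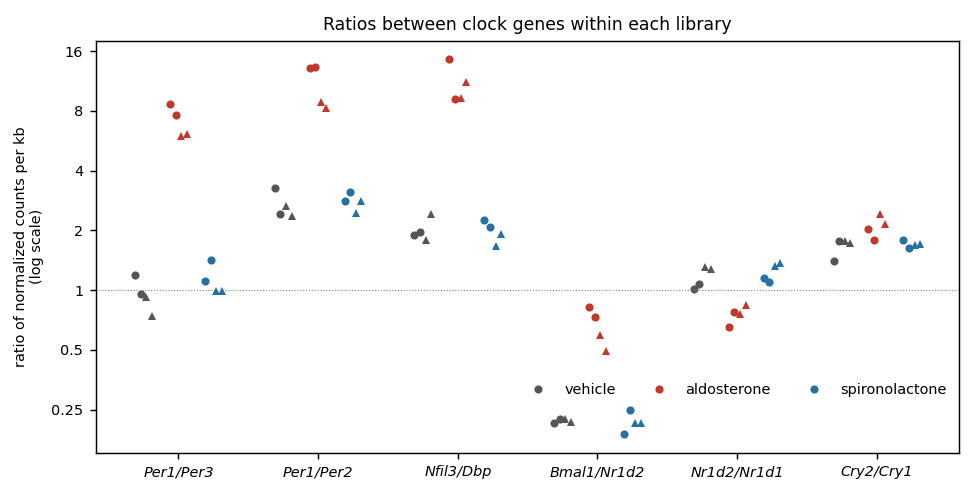
Ratios of normalized counts per kb between pairs of clock genes within each library, on a log axis, with circles for sample number 1 and triangles for sample number 2. The *Per1* to *Per3* ratio lies from 6.0 to 8.67 in the aldosterone libraries, from 0.742 to 1.19 with vehicle and from 0.990 to 1.42 with spironolactone.

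Levels between genes were compared per kb of gene length, with the spironolactone libraries scaled in another table than the rest. With vehicle, *Tef* was the highest of the 10 genes at 327 ± 29.0 normalized counts per kb, followed by *Nr1d2* at 239.6 ± 7.94, *Nr1d1* at 207 ± 29.6 and *Cry2* at 173 ± 4.14. *Tef* was apart from the rest, while *Nr1d2* and *Cry2* each overlapped *Nr1d1*. *Dbp*, *Per3*, *Clock*, *Cry1* and *Per1* followed between 104 and 117, each overlapping its neighbour, and *Per2* was lowest at 39.3 ± 6.10, apart from *Per1*. With aldosterone, *Per1* moved from the ninth place to the first at 368 ± 14.6, clear of *Tef* at 285 ± 39.9, while *Dbp* moved to the ninth at 44.0 ± 7.83 and *Nr1d2* to the fifth at 129 ± 8.76. *Dbp* then overlapped both its neighbours, *Per3* at 52.9 ± 9.80 and *Per2* at 35.5 ± 9.31. With spironolactone the first 5 places were held by the same genes in the same order as with vehicle.

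A comparison of aldosterone with spironolactone asks how the agonist differs from a second ligand of the receptor. It uses the same aldosterone libraries as the comparison above, so it is no independent repeat. Again 1 clock gene was higher (4.93% of 27631 genes) and 3 were lower (3.96%), and 3 passed both thresholds (1.9%). The spironolactone libraries of *Per1* had 626, 669.8, 720.2 and 718 normalized counts in that table and the aldosterone libraries 2198, 2020.0, 2199.8 and 2106. They did not overlap, nor did those of *Per3*, *Nr1d2* and *Dbp* (13% of all genes). The log2 differences were 1.64 for *Per1*, -1.01 for *Per3*, -0.87 for *Nr1d2* and -1.53 for *Dbp* (adjusted p = 1.43e-11, 5.58e-05, 7.97e-08 and 3.72e-07, limma). *Nr1d1* had a log2 difference of -0.16 (95% interval -0.35 to 0.03, adjusted p = 0.369, limma). *Per2* (-0.29) and *Tef* (-0.20) had adjusted p of 0.353 and 0.206, which became 0.0366 and 0.00319 with sample number as the replicate block (limma). With that block 1 clock gene was higher (7.58% of all genes) and 5 were lower (6.8%).

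Of the 26 other pathway genes, 8 were higher (4.93% of all genes) and 4 lower (3.96%) with aldosterone than with spironolactone. *Bmal1* (log2 difference 0.72), *Npas2* (0.76), *Nfil3* (0.93), *Nampt* (0.55), *Wee1* (0.44) and *Tspan4* (0.30) were higher. *Usp2* (0.42) and *Fbxl21* (0.75) were higher as well, with adjusted p of 0.0349 and 0.0412 (limma), and 7 and 8 of 8 single omissions ended their calls. *Ciart* (-0.95), *Timeless* (-0.65), *Bhlhe40* (-0.40) and *Cipc* (-0.24) were lower. The call of *Npas2* was lost in 6 of 8 single omissions, with an adjusted p of up to 0.0942, and that of *Cipc* in 7, with one of up to 0.113 (limma).

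Spironolactone itself left the clock genes near vehicle. No clock gene and no pathway gene was called, and limma called 0 of 27598 genes (0%), with 1251 genes and 1 clock gene at an unadjusted p under 0.05. DESeq2 called 13 genes, edgeR 0 with its filter and 7 without, and limma with sample number as the replicate block 97 (0.351%), of which 63 were higher and 34 lower. None of them was a clock gene or another pathway gene. The clock gene was *Per1*, at 613, 657, 706 and 705 normalized counts with spironolactone and 568, 572, 602 and 604 with vehicle in that table. Its 4 spironolactone libraries were above its 4 vehicle libraries, which held for 2.63% of all genes in either direction. The log2 difference of *Per1* was 0.19 (95% interval 0.04 to 0.34, adjusted p = 0.934, limma, and 0.251 with sample number as the replicate block). Intervals for other clock genes bound what could have been seen: *Nr1d2* at -0.03 (-0.15 to 0.09), *Tef* at 0.00 (-0.15 to 0.15), *Dbp* at 0.11 (-0.08 to 0.31) and *Per3* at -0.06 (-0.36 to 0.24). That of *Per2* reached further up, at 0.12 (-0.15 to 0.39). *Cry1* was at 0.02 (-0.16 to 0.20), *Cry2* at 0.05 (-0.07 to 0.17) and *Clock* at -0.05 (-0.17 to 0.07), and the log2 difference of *Nr1d1* was -0.11.

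Clock genes also differed between the sample numbers. In a fit with treatment as the other term, 3 clock genes were higher in sample 2 than in sample 1 in the aldosterone and vehicle libraries (8.77% of all genes called in either direction), 3 in the aldosterone and spironolactone libraries (7.74%), and in the spironolactone and vehicle libraries 2 were higher and 1 lower (8.17%). These fits share libraries pairwise and are not repeats of each other. *Per3* had log2 differences of 0.45, 0.47 and 0.47 between the samples in these 3 sets, with the higher values in sample 2 under every treatment (adjusted p = 3.30e-05, 1.16e-06 and 1.48e-06, limma). *Tef* had 0.29, 0.26 and 0.20 (adjusted p = 2.85e-05, 0.000278 and 0.0019, limma). *Per2* had 0.45 and 0.50 (adjusted p = 0.00615 and 0.000491) and, in the set without aldosterone, 0.29 (adjusted p = 0.0635, limma). *Nr1d1* had lower means in sample 2 in all 3 sets, with log2 differences of -0.18, -0.15 and -0.32 (adjusted p = 0.171, 0.284 and 0.000294, limma). It was called in the set without aldosterone, where sample 1 libraries had 637 to 723 normalized counts and sample 2 libraries 534 to 584.

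**Figure D5:**
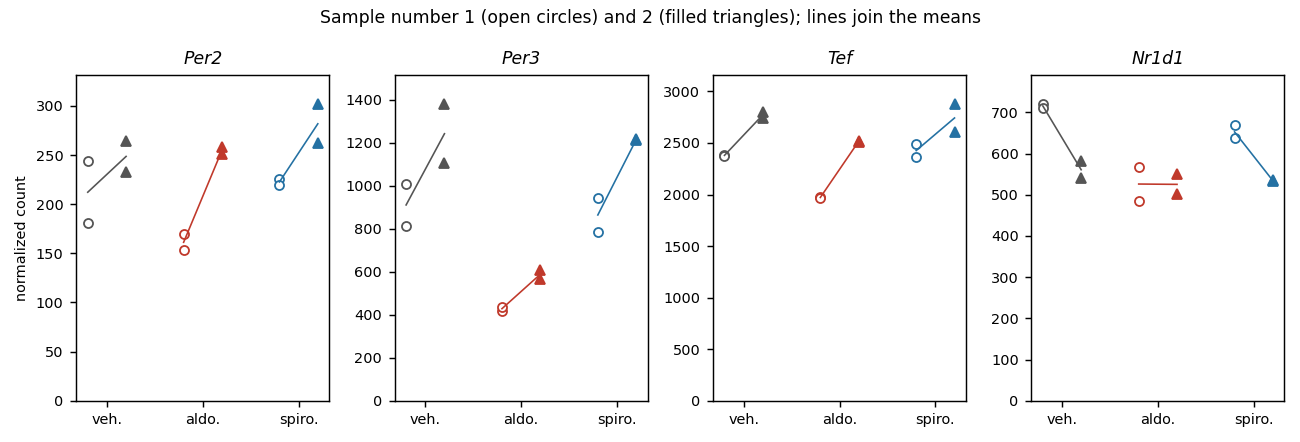
Normalized counts (linear axes from 0) of *Per2*, *Per3*, *Tef* and *Nr1d1* under each treatment, with open circles for sample number 1, filled triangles for sample number 2 and lines between their means (2 libraries each). *Per3* and *Tef* are higher in sample 2 under each treatment, and *Nr1d1* is lower in sample 2 with vehicle and with spironolactone.

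None of the 26 pathway genes was called between the samples in any of the sets. The number of clock genes called fell to 1 without any aldosterone library, vehicle sample 1 replicate 1 or vehicle sample 2 replicate 2 in the first set. It did so without aldosterone sample 1 replicate 2, both aldosterone libraries of sample 2, spironolactone sample 1 replicate 2 or spironolactone sample 2 replicate 1 in the second set. In the third it did so without vehicle sample 1 replicate 1, vehicle sample 2 replicate 2, spironolactone sample 1 replicate 2 or spironolactone sample 2 replicate 1. The fibroblast markers also differed between the samples: *Thy1* lay between 2445 and 3096 normalized counts in sample 1 and between 1619 and 2101 in sample 2, and *Dcn* between 3378 and 4732 and between 4734 and 5864. Their part in the clock results was not tested.

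The aldosterone effect was then compared between the sample numbers. It had the same direction in both for *Per1* (1.85 and 1.80 on the log2 scale), *Per3* (-1.08 and -1.07), *Nr1d2* (-1.0 and -0.80), *Dbp* (-1.61 and -1.23), *Tef* (-0.27 and -0.14) and *Cry2* (0.10 and 0.19), each with both aldosterone libraries beyond both vehicle libraries. For *Nr1d1* it was -0.45 in sample 1 and -0.09 in sample 2, a difference of 0.35 (95% interval 0.07 to 0.64, unadjusted p = 0.0195, adjusted p = 0.895, limma). For *Per2* the direction differed, at -0.38 in sample 1 and 0.04 in sample 2. That difference was 0.42 (95% interval -0.04 to 0.87, unadjusted p = 0.0682, adjusted p = 0.895, limma). The interaction was called for no clock gene and for 4 of all genes (0.0146%). On simulated reads with an interaction of a log2 of 1.5 in 200 genes, this test recovered 94. The absence of a call therefore does not show that the effect was the same in both samples. *Nr1d1* was the only clock gene at an unadjusted p under 0.05, as were 1356 of all genes.

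The genes most like *Per1* over the 12 libraries were sought among 15306 expressed genes by Pearson's r of log2 CPM, the reads of a gene scaled by library depth. The first 5 were *Ndrg2*, *Dpep1*, *Tsc22d3*, *Glul* and *Gsn*, with r from 0.995 to 0.996. The points share 3 treatments, so r mainly describes the step between the aldosterone libraries and the rest. *Per3* had the widest spread within groups, an SD of 0.27 on that scale, and the genes whose deviations from the group means were most like its own were *Csad* (r = 0.993), *Gm15222* (0.979), *Adam22* (0.979), *Mafg* (0.978) and *Iffo2* (0.977). These deviations share the sample number.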

How the data were processed

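Poly(A)-selected RNA of 12 fibroblast libraries was sequenced. Reads were aligned with HISAT2 (version 2.0.5) and counted per gene with featureCounts (version 1.5.0-p3), per the submitters' processing notes, and the authors compared groups with DESeq2. Those notes name the mm39 genome and the study's methods mm9. None of the 36 genes described here had the start or end of the mm9 annotation used as a check, and positions are printed as the deposited tables give them. The deposited values, 1 table for each pair of treatments, are a normalized signal: the authors divided the read counts of each library by a size factor. In 22 of 24 library columns whole reads were recovered (100% of values within 0.01 of a whole number), and for 2 libraries they came from their column in the other table. The tables also hold the authors' group means, fold changes and p-values, which were not used here. Values of vehicle and aldosterone libraries are from the table of that pair, those of spironolactone libraries from the table with vehicle, and tests were run only within a table.

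The test was limma (version 3.58.1) with a mean-variance trend on log2(value + 1) over all genes of a table, with treatment as the only term. Calls required an adjusted p no larger than 0.05, and the second threshold was a log2 fold change of 1 or more in size. For low genes this scale understates the change. The alternatives were a pseudocount of 0.5, a mean of at least 10, TMM scaling of the values, DESeq2 (version 1.42.0) and edgeR (version 4.0.16) on recovered reads, replicate blocks and leaving out each library. Scripts ran in R (version 4.3.3) and Python (version 3.11.15). Reads were also simulated for aldosterone against vehicle with 200 genes changed by a log2 of 1.5. Tested over 27319 genes, limma recovered 194 with 27 false calls, a larger false share than the 0.05 that its threshold aims at. With the replicate block it recovered 191 with 15 false calls. DESeq2 recovered 199 with 13 false calls, and edgeR with its filter 199 with 8. These simulated reads held no effect of the sample number, and the changed genes were drawn from well-expressed ones. They therefore do not show how the fits with or without the block behave where the samples differ, or for low genes.

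Libraries that shared a sample number across treatments departed from their group means in the same direction (24 pairs, Pearson's r 0.120 to 0.277 with a mean of 0.207, each over 0.1), while those with the same biological replicate number did not (mean r = -0.00484). The sample numbers come from the library titles. The sample number was therefore used as the replicate block. The blocked value is printed where it changed the call of a clock gene, and of the pathway genes for *Usp2* alone. With the block, 7 pathway genes were higher (8.68% of all genes) and 5 lower (8.02%) with aldosterone than with vehicle. Against spironolactone 8 were higher (7.58%) and 5 lower (6.8%). The block was chosen from the same libraries, so calls reached only with it depend on that choice.

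All 10 clock genes are named, and of the 26 other pathway genes those called without the block and those near 0, with others as examples. A further gene of that list is not reported here. The 5 genes most alike were ranked for the member with the smallest adjusted p and for that with the widest spread within groups. The members and lists were chosen with earlier results of these data known.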

Additional observations from a re-analysis of the deposited data

Results flagged for a closer look

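In 30 groups of 4 libraries, 1 for each clock gene and treatment, 2 held a library far from the other 3 by Dixon's test at its 95% limit, which chance meets in about 1 in 20 groups. Vehicle sample 1 replicate 1 had 402 normalized counts of *Cry1*, with the other vehicle libraries from 329 to 337. Aldosterone sample 1 replicate 1 had 96.9 of *Dbp*, with the other aldosterone libraries from 139 to 146. Without aldosterone sample 1 replicate 1 the call of *Dbp* was kept, as it was without any other single library (adjusted p up to 0.00226, limma). *Cry1* was called neither with nor without the vehicle library.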

How the results depend on the processing

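The 4 clock genes called with aldosterone were called against vehicle and against spironolactone in every alternative run. The number called was 4 in each, except with sample number as the replicate block, where *Nr1d1* and *Tef* (against vehicle) or *Per2* and *Tef* (against spironolactone) made it 6. That block changed no other clock gene's call, and a block on the biological replicate number changed none. When 1 library was left out, 4 clock genes were called in each of these comparisons, 2 to 3 passed both thresholds, and 6 to 8 pathway genes were called against vehicle, while 1 to 3 clock genes were called between sample numbers in each of the 3 sets. The differences whose direction reversed were ones that no test called. For spironolactone against vehicle, *Tef* turned to 0.00327 with TMM scaling and to 0.00319 with edgeR without a filter. When 1 library was left out, the log2 difference of spironolactone from vehicle ran from -0.056 to 0.039 for *Tef*, from -0.185 to 0.071 for *Per3* and from -0.012 to 0.082 for *Cry1*, and that of aldosterone from vehicle ran from -0.034 to 0.011 for *Clock*. The causes of these shifts were not tested. *Hlf* and *Rorb* had few reads in every library, which limits the precision of their differences.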
